A study of Mus musculus with 6 samples.

Results

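The genes examined here encode SCL and the proteins that join it in its DNA-bound complex. They were chosen by function, with earlier results of these data known, and matched by mouse gene symbol. All 10 were found among the 14005 genes with a value. They are Tal1 (which encodes SCL), its relative Lyl1, the E protein genes Tcf3, Tcf4 and Tcf12, the LIM-only genes Lmo2 and Lmo4, Ldb1, and the single-stranded DNA-binding protein genes Ssbp2 and Ssbp3.

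SCL is a basic helix-loop-helix (bHLH) factor that binds E-box DNA as a heterodimer with an E protein. LMO2 does not bind DNA itself and bridges the heterodimer to LDB1 and to GATA factors, while LDB1 self-associates and is protected from degradation by SSBP proteins. The complex is known for its role in the specification of blood from mesoderm and in erythroid cells, and LYL1 can take the place of SCL in parts of adult haematopoiesis.

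RNA was sequenced from FLK1+ mesodermal cells isolated at day 3.5 of embryoid body (EB) differentiation. The cells came from J1 wild-type (WT) mouse embryonic stem (ES) cells and from Scl-/- ES cells, which carry a disrupted Scl (Tal1) gene, with 3 libraries per genotype from independent differentiations numbered 1 to 3. Each genotype was labelled as a single line, so that line and genotype cannot be told apart. The strain was given as C57Bl/6 X Sv129 for the libraries of replicate 1 and for WT replicate 2, and as C57Bl/6 X Sv130, C57Bl/6 X Sv131 and C57Bl/6 X Sv132 for the others, which was not resolved. The FLK1 transcript Kdr checks the isolation and was present at 868, 832 and 867 CPM in the WT libraries and at 724, 777 and 810 CPM in the Scl-/- libraries. CPM are read counts of a gene scaled to the size of the library, and values per library are given in the order of the replicates. The values of each library were whole multiples of one step, within 0.1 of a step. Taking that step as 1 read put 38623641 to 47621120 reads per library on the listed genes, and 3 reads then correspond to 0.0615 to 0.0784 CPM, a floor for counting error only.

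Of the 10 SCL complex genes, 2 were called lower in Scl-/- cells, namely Tal1 and Lyl1, and the other 8 were not called. A gene was called at a Benjamini-Hochberg adjusted p under 0.05 from limma, fitted to log2(CPM + 0.5) of the 13991 genes that reached 0.5 CPM in 3 or more libraries, and an absolute log2 fold change above 0.48. By this rule 2.36% of all tested genes were called and 1.57% were called lower. All 10 complex genes passed the filter on low values. Libraries with the same number resembled each other, and when the fit also took account of the number as a block, Lmo2 was called lower as well, against 12.6% of all tested genes called and 6.60% called lower. The median log2 fold change of the 10 genes, Scl-/- against WT, was -0.16, or -0.13 without Tal1, and that of all tested genes was 0.009. The groups did not overlap for 2 of the 10, Tal1 and Lyl1, against 21.6% of all tested genes, and 5 of the 10 were lower in the Scl-/- library of each same-numbered pair, against 26.4% of all tested genes. Tal1 is the targeted gene, so that its fall was set by the design. Of the 9 other genes, 1 was called, or 2 with the block, 1 had groups that did not overlap, and 4 were lower in every pair. Bulk values cannot tell fewer cells of a type from less RNA per cell.

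**Figure D1:**
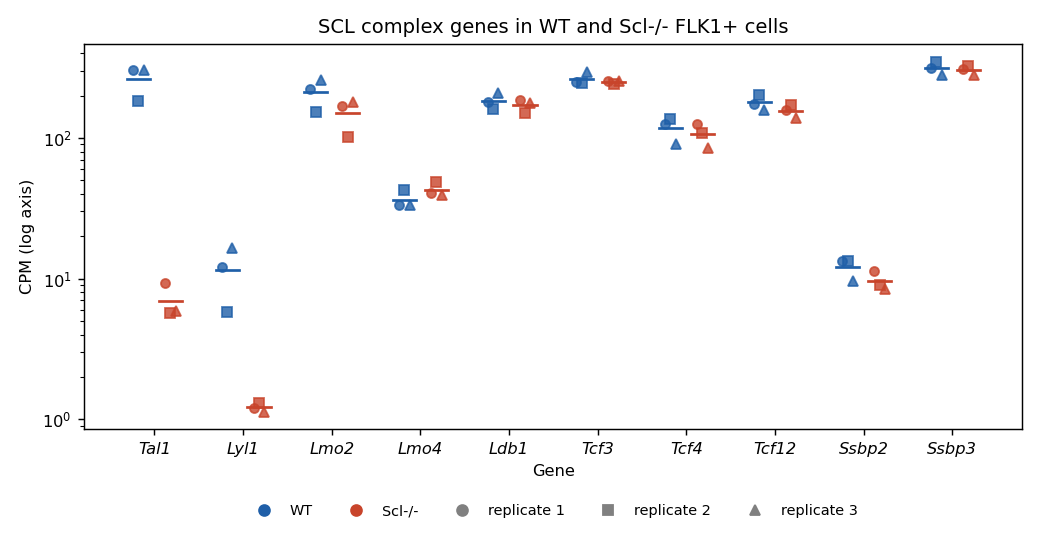
CPM (log axis) of each SCL complex gene in the 3 WT (blue) and 3 Scl-/- (red) libraries, with a line at the mean of each group and the symbol giving the replicate. The groups are apart for Tal1 and Lyl1 and overlap for the other 8 genes.

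Tal1 (ENSMUSG00000028717), the targeted gene, lies on chromosome 4 between 114729031 and 114744360 of mm9. It had 303, 182 and 306 CPM in the WT libraries and 9.35, 5.68 and 5.87 CPM in the Scl-/- libraries. All 3 Scl-/- libraries thus match their label, with WT levels 37.9 times those of Scl-/- cells on average. Within the same-numbered pairs the log2 difference was -4.95, -4.89 and -5.59. On the log2 scale Tal1 differed by -5.14 (standard error 0.257, 95% CI -5.74 to -4.54, limma's adjusted p = 6.7e-04). The values are per gene, so that which parts of the transcript the remaining reads come from was not analysed here.

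Lyl1 (ENSMUSG00000034041) encodes the bHLH factor closest to SCL. It had 12.1, 5.83 and 16.5 CPM in the WT libraries and 1.21, 1.31 and 1.13 CPM in the Scl-/- libraries. The WT libraries spread widely, with replicate 2 lowest as it was for Tal1, whereas the Scl-/- libraries lay close together and below every WT library. The log2 fold change was -2.69 (standard error 0.344, 95% CI -3.49 to -1.88, limma's adjusted p = 0.0106). Over the alternatives limma's adjusted p ranged from 8.7e-05 to 0.0798, the highest without WT replicate 1, where the log2 fold change was -2.60 and the call ended. With the block Lyl1 was called also when any pair was left out.

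Lyl1 lies on chromosome 8 from 87225356 to 87228614 of mm9, on the plus strand and within the span of Nfix, which runs on the minus strand from 87223775 to 87324243. Nfix, a gene for a nuclear factor I protein that was looked at after the values were seen, was itself called lower (log2 fold change -2.14, limma's adjusted p = 0.0145). In 1138 of 1167 cases in which a listed gene lay inside the span of another, the outer gene had at least the CPM of the inner one in all 6 libraries, and so it was in 312 of 332 cases on opposite strands with no exon in common. How often this would be so without shared reads was not tested, and a value may hold reads of a gene that overlaps it. With the CPM of Lyl1 subtracted, Nfix had 4.21, 3.82 and 3.59 CPM in the WT libraries and 1.93, 2.37 and 1.04 CPM in the Scl-/- libraries. The subtraction takes every Lyl1 read to be counted in Nfix as well, which was not shown. How far Nfix reads add to Lyl1 was not tested.

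The sequences before the start sites of the called genes, Lyl1 and the targeted gene Tal1, are shown as a description. They are the 250 bases before the RefSeq start on the plus strand of GRCm38.p6, at chr4:115056176-115056425 for the more upstream of the Tal1 starts and at chr8:84701207-84701456 for Lyl1. Capitals mark matches to the E-box (CANNTG), to the motif of GATA factors (spelled GATA), to the ETS core (CCGGAA) and to both ends of a composite of part of an E-box and a GATA motif (CTGNNNNNNNNGATA). Both strands were searched, and a GATA motif inside the composite counts for both.
Tal1: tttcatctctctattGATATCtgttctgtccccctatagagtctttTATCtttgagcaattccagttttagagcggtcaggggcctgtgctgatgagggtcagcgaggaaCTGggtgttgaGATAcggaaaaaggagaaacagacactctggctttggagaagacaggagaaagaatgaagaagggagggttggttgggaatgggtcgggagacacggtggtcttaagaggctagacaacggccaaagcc
Lyl1: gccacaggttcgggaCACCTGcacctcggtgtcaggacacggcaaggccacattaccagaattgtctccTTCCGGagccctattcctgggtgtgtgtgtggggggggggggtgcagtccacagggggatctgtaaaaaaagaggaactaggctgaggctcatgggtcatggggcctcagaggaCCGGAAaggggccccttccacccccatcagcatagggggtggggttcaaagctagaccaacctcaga
The Tal1 window shown held 4 GATA matches, of which 1 formed the composite, and no E-box or CCGGAA. Shorter ETS spellings, such as the AGGAA given in the paper's supplement, were not searched. The window of the more downstream Tal1 start, at chr4:115057561-115057810, held no match to any of these motifs. The Lyl1 window held 1 E-box and 2 ETS cores, the latter beginning 181 and 67 bases before the start, and no GATA. Of all 32851 RefSeq promoter windows of this length, 66.2% held an E-box, 53.6% a GATA, 12% an ETS core and 1.91% the composite. Promoter windows were matched for 8 of the 10 genes, with 16 windows in all. Among these 16, an E-box was found in 8, GATA in 5, the ETS core in 2 (at Lyl1 and Tcf3) and the composite in 1. A match of these letters is a description and shows no binding.

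The E proteins are the broadly expressed bHLH partners of SCL, and none of the 3 genes was called. Tcf3 (which encodes E2A) had 251, 247 and 293 CPM in the WT libraries and 255, 241 and 254 CPM in the Scl-/- libraries. Its log2 fold change was -0.07 (95% CI -0.30 to 0.16, limma's adjusted p = 0.817). Tcf4 (E2-2) ranged from 90.0 to 136 CPM in WT and from 84.7 to 126 CPM in Scl-/- cells, with replicate 3 lowest in both groups. Its log2 fold change was -0.13 (95% CI -0.59 to 0.33, limma's adjusted p = 0.841). Tcf12 (HEB) had 175, 203 and 158 CPM in WT and 158, 172 and 138 CPM in Scl-/- cells. The groups overlapped, but each Scl-/- library was lower than its pair, by log2 differences of -0.15, -0.24 and -0.20. The log2 fold change of Tcf12 was -0.19 (standard error 0.128, limma's adjusted p = 0.516, or 0.0438 with the block), and its size did not reach 0.48.

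The LIM-only proteins connect the bHLH heterodimer to LDB1. Lmo2 had 222, 152 and 259 CPM in the WT libraries and 168, 102 and 179 CPM in the Scl-/- libraries. Replicate 2 was lowest in each group, and Scl-/- replicates 1 and 3 lay above WT replicate 2, so that the groups overlapped. Each Scl-/- library was nevertheless lower than the WT library of its number, by log2 differences of -0.40, -0.57 and -0.53. The log2 fold change was -0.50 (standard error 0.262, 95% CI -1.11 to 0.11, limma's adjusted p = 0.391), and with the block the standard error was 0.0614, the 95% CI -0.64 to -0.36 and limma's adjusted p = 0.00128. The call with the block rests on a value just past the threshold of 0.48, and without replicate 2 the log2 fold change was -0.46, which ended the call.

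Lmo2 (ENSMUSG00000032698) lies on chromosome 2 from 103798143 to 103822035 of mm9. Most of its span lies inside that of 4931422A03Rik, which runs on the opposite strand from 103807100 to 103868518. The CPM of 4931422A03Rik exceeded that of Lmo2 by 7.98, 6.82 and 7.41 CPM in WT cells and by 6.25, 4.52 and 7.03 CPM in Scl-/- cells, so that nearly all of its value was matched by Lmo2. Its log2 fold change was accordingly close to that of Lmo2, at -0.49.

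Lmo4 encodes the LIM-only protein that is widely expressed outside blood and also binds LDB1. It was the only complex gene with a positive log2 fold change. It had 33.1, 42.9 and 33.4 CPM in the WT libraries and 40.5, 48.8 and 39.5 CPM in the Scl-/- libraries. Each Scl-/- library was higher than its pair, by log2 differences of 0.29, 0.18 and 0.24, with overlapping groups. The log2 fold change was 0.24 (standard error 0.146, limma's adjusted p = 0.481, or 0.0489 with the block), and its size did not reach 0.48 either. By the adjusted p alone and with the block, 5 of the 10 complex genes passed, namely Tal1, Lyl1, Lmo2, Tcf12 and Lmo4, against 24.2% of all tested genes. Without pair 1 the count was 4, and without pair 2 or pair 3 it was 3. Lmo4 did not pass with any pair left out, and Tcf12 passed only without pair 1. Of the 9 genes other than the targeted Tal1, 4 passed with all pairs kept.

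**Figure D2:**
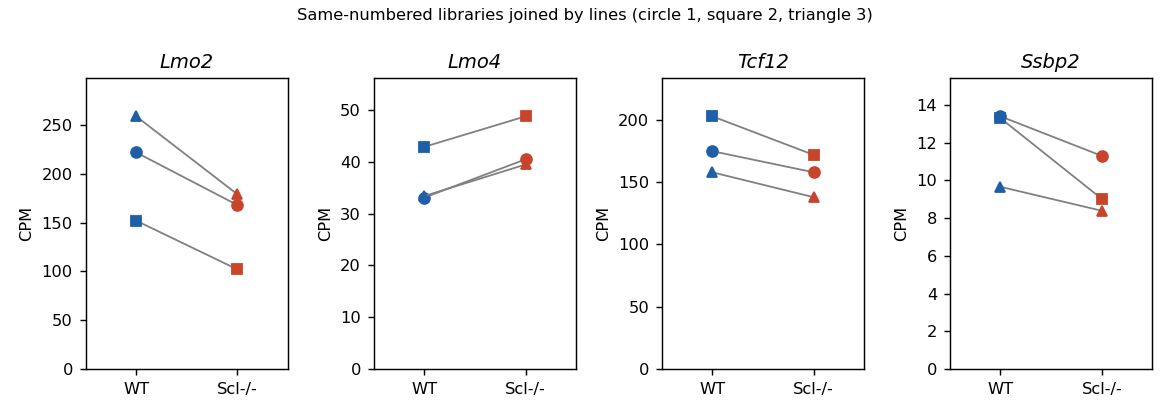
CPM (axis from 0) of Lmo2, Lmo4, Tcf12 and Ssbp2 in WT and Scl-/- libraries, with lines joining libraries of the same number. The lines of Lmo2, Tcf12 and Ssbp2 descend and those of Lmo4 climb in all 3 pairs, although the groups overlap for each gene.

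LDB1 is the scaffold that joins complexes at distant sites. Ldb1 had 181, 161 and 209 CPM in the WT libraries and 185, 151 and 176 CPM in the Scl-/- libraries. The direction differed between pairs, and the log2 fold change was -0.11 (95% CI -0.41 to 0.20, limma's adjusted p = 0.777). The SSBP proteins stabilise LDB1. Ssbp3 ranged from 280 to 349 CPM in WT and from 282 to 325 CPM in Scl-/- cells, and its log2 fold change was -0.04 (95% CI -0.30 to 0.22, limma's adjusted p = 0.937). Ssbp2 had 13.4, 13.3 and 9.66 CPM in the WT libraries and 11.3, 9.02 and 8.39 CPM in the Scl-/- libraries. In every pair the Scl-/- library was the lower one, and Ssbp2 had a log2 fold change of -0.32 (95% CI -0.76 to 0.11, limma's adjusted p = 0.444, or 0.0803 with the block), and was not called. For the 7 genes not called in either fit, the 95% CIs of the fit with the block reached from -0.59 at the low end, for Ssbp2, to 0.40 at the high end, for Lmo4.

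**Figure D3:**
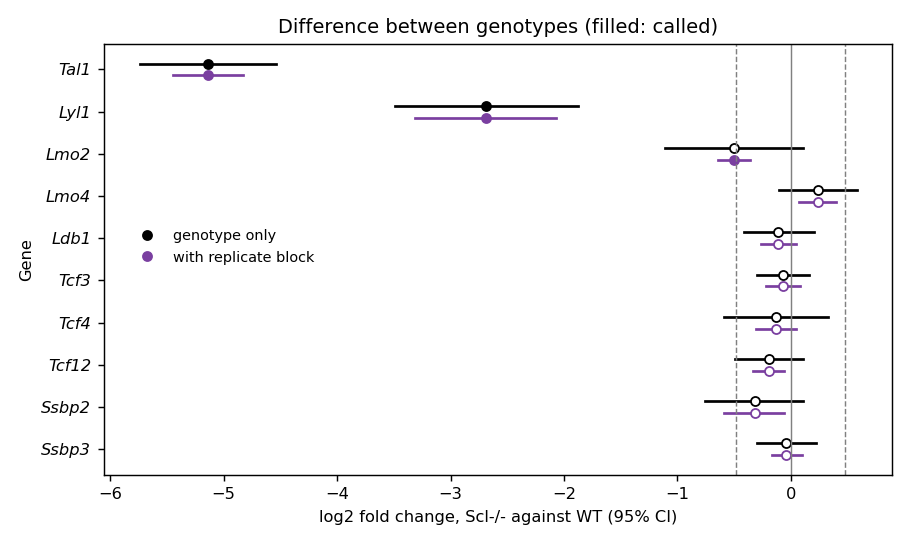
log2 fold change of each SCL complex gene, Scl-/- against WT, with 95% confidence intervals from limma with genotype only (black) and with the replicate block (purple). Filled points were called and dashed lines mark 0.48 in each direction; Lmo2 is filled with the block only.

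The complex genes differ in length, so that their levels were compared as CPM per kb of exon. In WT cells Lmo2 was highest, at 97.3 ± 25.0 CPM per kb (SD, n = 3), followed by Tcf3 at 65.3 ± 6.36, Tal1 at 60.2 ± 16.1, Ldb1 at 51.3 ± 6.72 and Ssbp3 at 47.0 ± 5.20 CPM per kb. Neighbours in this order overlapped in their ranges from Lmo2 down to Ssbp3. Below them came Tcf12 at 36.7 ± 4.63 CPM per kb, Lmo4 at 11.1 ± 1.70, Tcf4 at 9.54 ± 1.95, Lyl1 at 6.37 ± 2.98 and Ssbp2 at 1.52 ± 0.267 CPM per kb. The ranges of Lmo4, Tcf4 and Lyl1 overlapped from neighbour to neighbour, while Tcf12 and Ssbp2 stood apart from the genes next to them. The level of Tal1 in WT cells was 10.3 ± 2.62 times that of Lyl1 (SD, n = 3). The order depends on the length used. With the longest transcript as the length, Lmo2 was again highest in WT cells, but Ssbp3 came next and Tal1 took place 5. The ranges of Lmo4, Tcf4 and Lyl1 were then apart, and those of Lyl1 and Ssbp2 overlapped.

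In Scl-/- cells Tal1 held the eighth place, at 1.59 ± 0.471 CPM per kb (SD, n = 3), with a range that overlapped that of Ssbp2 at 1.20 ± 0.189 CPM per kb. Lyl1 was lowest, at 0.676 ± 0.0477 CPM per kb. The other 7 genes stood in the same order as in WT cells, from Lmo2 at 69.1 ± 19.2 CPM per kb and Tcf3 at 61.9 ± 1.92 CPM per kb to Tcf4 at 8.70 ± 1.70 CPM per kb. With the longest transcript as the length this did not hold, since in Scl-/- cells Ssbp3, at 95.5 ± 6.87 CPM per kb, stood above Lmo2, at 87.8 ± 24.4 CPM per kb, and Ssbp2 stood above Tal1, in both cases with overlapping ranges. Reads in introns can add to the genes with long introns, such as Tcf4, and exon length does not correct for them.

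**Figure D4:**
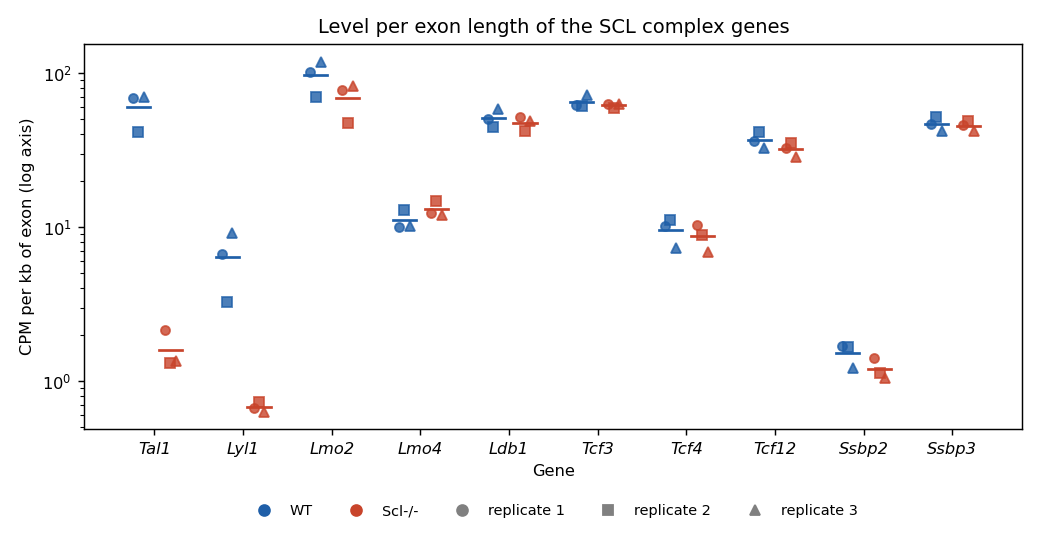
CPM per kb of exon (log axis) of each SCL complex gene in the WT (blue) and Scl-/- (red) libraries, with a line at each group mean. Lmo2, Tcf3, Tal1, Ldb1 and Ssbp3 have group means between 47.0 and 97.3 in WT cells, and in Scl-/- cells Tal1 has a mean of 1.59.

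The balance of the complex was described by ratios of these levels, with no test. The ratio of Tal1 and Lyl1 together to the 3 E protein genes together was 0.701, 0.394 and 0.702 in WT cells and 0.0265, 0.0194 and 0.0201 in Scl-/- cells. E protein transcripts thus outnumbered those of their SCL-type partners per length in every library. The E protein sum was 108, 114 and 112 CPM per kb in WT and 106, 104 and 98.2 CPM per kb in Scl-/- cells, so that it lay slightly lower in Scl-/- cells without overlap. Tcf3 made up 58.5 ± 5.54% of that sum in WT and 60.4 ± 3.39% in Scl-/- cells (SD, n = 3), and Tcf12 made up 32.9 ± 3.86% and 31.2 ± 2.61%. The ratio of Lmo2 to Lmo4 was 10.2, 5.39 and 11.8 in WT cells and 6.29, 3.19 and 6.91 in Scl-/- cells. In every pair the Scl-/- library had the lower ratio, with overlapping groups. With the longest transcript as the length, the mean ratio of Lmo2 to Lmo4 was 5.87 in place of 9.12 in WT cells and 3.51 in place of 5.46 in Scl-/- cells. The ratio of Lmo2 to Ldb1 was 1.88 ± 0.274 in WT and 1.44 ± 0.287 in Scl-/- cells (SD, n = 3), and that of Ssbp3 to Ssbp2 was 31.2 ± 3.38 and 38.5 ± 5.29.

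Related genes were taken from lists of paralogues, inhibitors, DNA-binding partners, cofactors, other class II bHLH genes, LIM homeodomain genes and target genes, 70 genes in all, of which 48 were analysed. Among these 48, 12 were called and all of them were lower in Scl-/- cells, while with the block 20 were called lower and 6 higher. Among all tested genes 2.36% were called and 1.57% called lower, or 12.6% and 6.60% with the block. These shares also apply to the counts of each related list and marker list below. The lists were chosen with earlier results of these data known, so that counts above these shares describe the lists and are no independent test. Without WT replicate 1 the count called among the 48 was 1. Tal2, Gata1, Gfi1, Gfi1b and Hbb-bh1 reached 0.5 CPM in the WT libraries only. They thus entered the test through the group in which they were higher, and their direction is no separate result. The median log2 fold change over the 48 was -0.39.

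Of the 4 paralogues analysed, Tal2, a further SCL-type bHLH gene, was called lower. It had 1.73, 0.967 and 2.36 CPM in the WT libraries and 0.225, 0.145 and 0.0907 CPM in the Scl-/- libraries. Its log2 fold change was -1.69 (limma's adjusted p = 0.0291). All 3 of the SCL-type genes analysed, Tal1, Lyl1 and Tal2, were lower in Scl-/- cells. Of these, Tal1 is the targeted gene, and Tal2 passed the filter on low values through its WT libraries only. Lmo1 was higher, but was called with the block only. It had 12.7 ± 5.72 CPM in WT and 28.9 ± 16.6 CPM in Scl-/- cells (SD, n = 3), and the log2 differences within the pairs were 0.57, 1.17 and 1.38. Limma's adjusted p for Lmo1 was 0.409, or 0.00275 with the block, at a log2 fold change of 1.04. The most abundant paralogue by mean CPM over all 6 libraries, which is the sense used for every list, was Ssbp4. It had 127 ± 27.1 CPM in WT and 106 ± 23.7 CPM in Scl-/- cells (SD, n = 3) and was not called. The median log2 fold change of this list was -0.37. Nhlh1, Nhlh2 and Lmo3 were not analysed here.

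ID proteins bind E proteins and keep them from DNA. Of the 4 Id genes, 0 were called by limma, against 1 at an unadjusted p under 0.05, and the block added 1. With the block 12.6% of all tested genes were called. Id4 had 7.22 ± 0.370 CPM in WT and 4.80 ± 0.581 CPM in Scl-/- cells (SD, n = 3), a log2 fold change of -0.55 (limma's adjusted p = 0.129, or 0.0208 with the block). The most abundant, Id3, had 172 ± 43.6 CPM in WT and 164 ± 48.6 CPM in Scl-/- cells (SD, n = 3), and the list median was -0.06.

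The DNA-binding partners of the complex were the list with the lowest median log2 fold change among the 7 lists of related genes, at -2.80. Of its 6 genes 5 were called lower in both fits. Gata1, the erythroid GATA factor, had 6.75, 3.29 and 10.5 CPM in the WT libraries and 0.225, 0.145 and 0.204 CPM in the Scl-/- libraries, and its log2 fold change was -3.28 (limma's adjusted p = 0.00857). Gata2, which acts in early progenitors, was the most abundant of the list over all 6 libraries and in WT cells. It had 265, 180 and 284 CPM in WT and 71.9, 34.4 and 52.2 CPM in Scl-/- cells, and a log2 fold change of -2.23 (limma's adjusted p = 0.0106). The ETS gene Erg fell from 14.6 ± 4.61 to 1.32 ± 0.786 CPM (SD, n = 3; limma's adjusted p = 0.0105), and Fli1 and Runx1 had log2 fold changes of -3.09 and -2.52. Gata3, singled out after its value was seen, was the gene not called, with a log2 fold change of -0.33. In Scl-/- cells it had 182, 72.6 and 103 CPM, more than Gata2 in each library.

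Of the 15 cofactors, 2 were called lower, and 5 with the block. On the log2(CPM + 0.5) scale those with the lowest log2 fold changes were the corepressor gene Cbfa2t3 (-5.25), Gfi1b (-3.52), Runx1t1 (-1.46) and Gfi1 (-1.30), and the latter pair was called with the block only, as was Zfpm1 (-0.66), named here after its value was seen. Gfi1b and Gfi1 had means of 0.073 and 0.154 CPM in Scl-/- cells, within a few reads of the floor, so that their log2 fold changes and their places in this order depend on the added 0.5. By the mean over all 6 libraries Rlim was narrowly first, beside Crebbp, which was higher in WT cells at 256 ± 54.1 CPM (SD, n = 3). Rlim encodes a ubiquitin ligase of LDB1 and LIM proteins. Rlim had 233 ± 74.7 CPM in WT and 239 ± 56.9 CPM in Scl-/- cells (SD, n = 3) and was not called. The list median was -0.22.

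Other class II bHLH genes also encode partners of E proteins. Of the 8 analysed, 0 were called by limma, against 2 at an unadjusted p under 0.05, while the block added 3 called higher. These were the mesodermal genes Mesp1, Mesp2 and Msgn1, with log2 fold changes of 1.40, 1.38 and 0.69 (limma's adjusted p = 1.6e-04, 0.0095 and 0.0105 with the block). Mesp2 had 1.58, 7.97 and 3.42 CPM in the WT libraries and 3.07, 16.7 and 19.5 CPM in the Scl-/- libraries. Hand1, the most abundant, had 419 ± 66.9 CPM in WT and 318 ± 116 CPM in Scl-/- cells (SD, n = 3) and was not called. The median of the 8 was -0.02. Tcf21, Scx, Msc, Ascl2 and Myf5 were not analysed here.

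LIM homeodomain proteins bind LDB1 through the same kind of domain as LMO2. Of the 12 genes, 3 were analysed, 0 were called by limma and 0 passed an unadjusted p of 0.05, while the block added 2 called higher, and the median was 0.57. Lhx1 varied most between replicates, with 28.7, 216 and 36.5 CPM in the WT libraries and 83.4, 721 and 340 CPM in the Scl-/- libraries. In every pair the Scl-/- library was the higher one, and the groups overlapped (log2 fold change 2.15, limma's adjusted p = 0.299, or 0.00145 with the block). Isl1 had a log2 fold change of 0.57 (limma's adjusted p = 0.285, or 0.0298 with the block).

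Of 13 target genes known from blood and vessels, 8 were analysed. All 8 had negative log2 fold changes, 4 were called, and 8 were called with the block, with a median of -1.62. Hhex, a homeobox gene of blood and endothelial progenitors, fell from 71.0 ± 15.5 to 22.2 ± 3.93 CPM (SD, n = 3; log2 fold change -1.64, limma's adjusted p = 0.0102). The embryonic globin gene Hbb-bh1 had 1.33, 0.601 and 1.94 CPM in the WT libraries and was listed at 0 in all 3 Scl-/- libraries. Cdh5, which encodes VE-cadherin, and Itga2b, which encodes CD41, had log2 fold changes of -3.13 and -2.84.

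**Figure D5:**
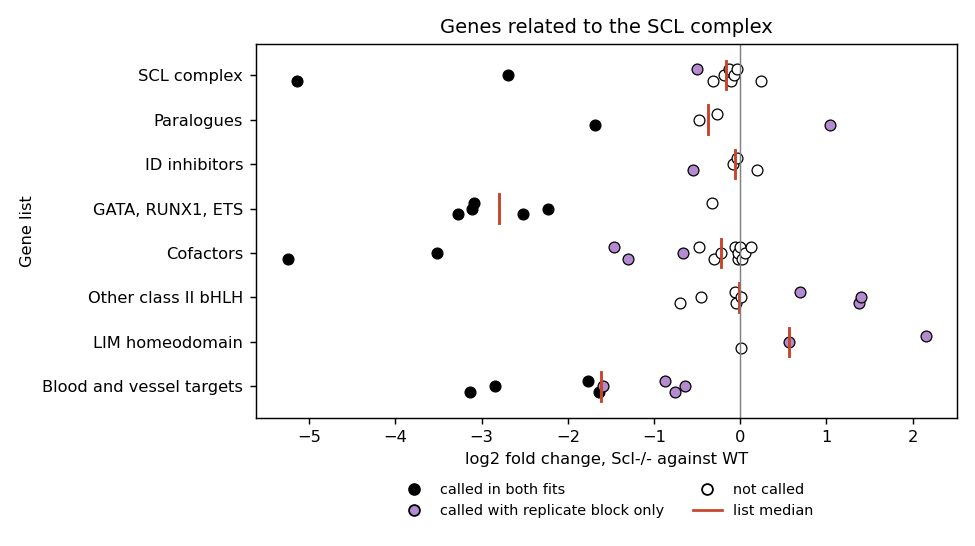
log2 fold change, Scl-/- against WT, of the SCL complex genes and of the genes of 7 related lists, 1 point per gene, with red bars at the list medians. Black points were called in both fits, purple points with the replicate block only, and white points in neither; the median of the list of GATA, RUNX1 and ETS genes is at -2.80 and that of the complex genes at -0.16.

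Markers of blood and endothelium moved with the genotype, as Tal1 and Lyl1 did. Of 8 blood markers, 5 were analysed and all 5 were called lower, though Gata1 and Hbb-bh1 reached 0.5 CPM in WT libraries only. The summed level of the 5 was 61.6, 31.0 and 69.1 CPM in the WT libraries and 4.04, 3.94 and 4.83 CPM in the Scl-/- libraries. Itga2b was the most abundant, and Hbb-bh1 was at 0 in Scl-/- cells. Myb and Spi1, factors of blood progenitors, had log2 fold changes of -3.86 and -1.81. The median of the 5 was -2.84, or -3.28 with Hbb-bh1 set at the floor of 3 reads per library. Of 6 endothelial markers, 5 were analysed, 2 were called lower, and 5 with the block, with a median of -1.95. Their sum was 223, 117 and 302 CPM in WT and 43.5, 16.0 and 57.1 CPM in Scl-/- cells, and Cdh5 was the most abundant. Tie1, Tek and Pecam1, which encode endothelial surface proteins, had log2 fold changes of -3.64, -1.95 and -1.23, and Esam, named after its value was seen, had -1.07. WT replicate 2 had the lowest sum of both lists among the WT libraries, as it had the lowest Tal1, Lyl1 and Lmo2. Cdh5, Itga2b and Hbb-bh1 stand on the target list and Gata1 on that of the DNA-binding partners as well. The part of these cells in the values of the complex genes was not tested.

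None of the 8 markers of FLK1+ mesoderm was called lower in either fit. All 8 were analysed, 2 were called higher and 6 with the block, with a median of 0.83. Their sum was 1668, 2078 and 1860 CPM in the WT libraries and 2113, 2876 and 2924 CPM in the Scl-/- libraries, with Kdr most abundant. The 4 of them with the largest log2 fold changes were Mesp1, Mixl1 (1.04), Eomes (1.03) and Pdgfra (0.88). Mixl1 and Etv2 (0.78), the latter named after its value was seen, were those called in both fits. Kdr (-0.15), lower in all 3 pairs without overlap of the groups, and Foxf1 (-0.61), lower in 2 pairs and named after its value was seen, had negative log2 fold changes and were not called. Pdgfra, a receptor gene of cardiac and paraxial mesoderm, had 46.6, 121 and 63.4 CPM in WT and 75.7, 191 and 156 CPM in Scl-/- cells. Of the 6 pluripotency markers, 0 were called by limma, against 1 at an unadjusted p under 0.05, while with the block Nanog and Pou5f1 were called higher and Esrrb lower, and the median was -0.09. Their sum was 145, 205 and 128 CPM in WT and 119, 283 and 236 CPM in Scl-/- cells, with Pou5f1 most abundant.

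The remaining marker lists were summed in the same way. Of 5 endoderm markers 2 were analysed, with sums of 14.8, 8.34 and 22.4 CPM in WT and 3.32, 3.12 and 8.44 CPM in Scl-/- cells, and Sox17, the more abundant, was called lower with the block only (log2 fold change -2.10). The sums were mostly Sox17, except in Scl-/- replicate 2, where Sox17 had 0.967 CPM and Cer1 had 2.15 CPM. Sox17 is also an endothelial gene, and the sums do not stand for endoderm as a whole. Cer1, the other marker, was higher in the Scl-/- library of all 3 pairs and was not called (0.85). Of 5 cardiac markers 3 were analysed, with sums of 9.88, 14.7 and 12.1 CPM in WT and 20.2, 33.7 and 30.2 CPM in Scl-/- cells. With the block 2 of these were called higher, Myl7 (1.83) and Isl1, and Myl7 was the most abundant. Nkx2-5 was lower in all 3 pairs and was not called (-0.21). Cer1 and Nkx2-5 were named after their values were seen. Pax6 was the 1 of 4 neuroectoderm markers analysed and had 14.0 ± 1.35 CPM in WT and 14.5 ± 0.918 CPM in Scl-/- cells (SD, n = 3). By limma without the block, 0 of these endoderm, cardiac and neuroectoderm markers were called, against 1, 1 and 0 at an unadjusted p under 0.05.

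The genes most like Tal1 over the 6 libraries, by Pearson's r of log2(CPM + 0.5), were Cbfa2t3 (0.998), Nrip3 (0.997), Asic4 (0.996), Capza1 (0.996) and ENSMUSG00000086888 (0.995), which lies antisense to Id4. Like patterns came with log2 fold changes of different size. Nrip3 and Asic4 had log2 fold changes of -3.86 and -4.27, but Capza1 had -0.11. The genes most like Lyl1 were Gap43 (0.999), Kcnn1 (0.998), Gfi1b (0.998), Gata1 (0.997) and Sec22b (0.997). Tal1 itself had an r of 0.973 with Lyl1 and stood in place 106 of its list. Lmo2 was most like 4931422A03Rik, whose span holds most of Lmo2, and then Notch3 (0.999), Ecscr (0.998), 1700066B19Rik (0.998) and Tor3a (0.997). Ecscr and 1700066B19Rik overlap each other on opposite strands. With Lmo2, Ldb1 had an r of 0.916 and Lmo4 of -0.973. The points are the 6 libraries of both genotypes, and they share genotype and replicate number.

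No complex gene lies on chromosome 1 or 11, whose tested genes had median log2 fold changes of -0.29 and 0.31, while the named genes Mixl1, Sox17, Asic4 and Tor3a lie on the former and Lhx1, Hand1, Itga2b, Pecam1 and Myl7 on the latter. Nor does any lie on chromosome Y, whose 4 tested genes had a median of 1.75. The shares given for all tested genes include the genes of chromosomes 1, 11 and Y. The nearest listed genes on both sides of each complex gene, 20 in all, included 0 called by limma, against 4 at an unadjusted p under 0.05. With the block 2 were called, Cgnl1 beside Tcf12 (log2 fold change -1.17) and Acot11 beside Ssbp3 (1.04). Among all tested genes 2.36% were called, or 12.6% with the block. Those beside Tal1 were Stil (-0.36) and Pdzk1ip1 (0.46), those beside Lyl1 were Trmt1 (0.05) and Dand5 (-0.08), and those beside Lmo2 were Caprin1 (-0.13) and Fbxo3 (-0.09). These 6 were not called in either fit, although limma's adjusted p for Stil was 0.0104 with the block. The neighbours were named after their values were seen. Ldb1 overlaps Pprc1 at one end, and the spans of Tcf12 and Ssbp3 hold ENSMUSG00000073229 and Gm12786, with mean levels of 6.80 and 5.34 CPM, which can add to the larger values of Tcf12 and Ssbp3. Among the other genes named, Capza1, Cbfa2t3, Foxf1, Gata3, Id4, Myb, Notch3, Pax6, Runx1 and Zfpm1 also overlap listed genes, and their values carry the same uncertainty.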

How the data were processed

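The authors aligned paired reads to mm9 with TopHat2 2.0.8b, removed duplicate pairs, filtered by mapping quality with SAMtools 0.1.19, and deposited CPM values scaled by the TMM method of edgeR. The counting tool, its annotation and strandedness were not given in the sources used here. CPM after TMM scaling is no count, so that a count model was not the main test. Therefore limma 3.58.1 in R 4.3.3 (lmFit, eBayes with an intensity trend) was used on log2(CPM + 0.5), which understates the change of low genes. It was tested on simulated data.

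Deviations from the group means correlated across genes at 0.59, 0.76 and 0.75 for libraries with the same number and at -0.62 to -0.10 for other pairs, and the labels give both groups numbers 1 to 3. Such deviations cancel within each group, so that the negative values follow in part from the positive ones and are no separate evidence. From the positive values and the labels, the numbers were taken to pair the libraries, and a fit with the number as a block was made beside the one with genotype only.

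Positions and exon lengths were from GENCODE for mm9, which held all 14005 genes. Promoters were from RefSeq (GRCm38.p6). Pseudocounts, filters, scaling, trend, thresholds, gene length and left-out libraries were varied.

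The members and lists were chosen with earlier results of these data known. A list gene with no value used is not reported here. Genes named were all members, the genes of each list called with or without the block (at most 4, by absolute log2 fold change) and its most abundant gene, the 5 genes of mean 1 CPM or more most like Tal1, Lyl1 and Lmo2, and Kdr and Pdgfra. Neighbouring and overlapping genes, Etv2, Zfpm1, Esam, Gata3, Crebbp, Cer1, Nkx2-5 and Foxf1 were named after their values were seen. Other steps used Python 3.11.15, NumPy 2.4.6, SciPy 1.17.1, pandas 2.3.3 and Matplotlib 3.10.9.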

Additional observations from a re-analysis of the deposited data

How the results depend on the processing

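Of 160 log2 fold changes of the 10 complex genes under the alternatives, 152 kept their direction and their side of the call rule. Tal1 was called in all 16 alternatives, with log2 fold changes from -5.39 to -4.92. Lyl1 was called in 15 of 16, from -3.13 to -2.34, the exception being the fit without WT replicate 1. Lmo2 ranged from -0.72 to -0.25 and was called with the block, and with the block without replicate 1 or 3. Near-zero values changed sign when a library was left out: Tcf3 (range -0.12 to 0.01) without WT replicate 3, Tcf4 (-0.31 to 0.03) without Scl-/- replicate 3, and Ssbp3 (-0.12 to 0.04) without WT replicate 2, and to 0.02 without Scl-/- replicate 3.

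Without the block 330 genes were called and with it 1768, among them all 330. Leaving out single libraries moved the count to between 44 (without WT replicate 1) and 384, and leaving out pairs with the block, added after seeing the data, to 2062, 1122 and 1210. The count of complex genes called was 2, or 3 with the block, from 1 to 3 with libraries left out, and 5 by the adjusted p alone with the block, or 4, 3 and 3 with pair 1, 2 or 3 also left out, added after seeing the data. That of the 48 related genes was 12, or 26 with the block, 1 without WT replicate 1, and 26, 23 and 22 with the block and pair 1, 2 or 3 left out. The block changed no other call among the complex genes, and its other changes are given with the lists. With the longest transcript as gene length, the ratio of Tal1 and Lyl1 to the E proteins was 0.0175 in Scl-/- cells in place of 0.022, and that of Lmo2 to Ldb1 was 1.53 in WT in place of 1.88, through the lengths alone. That of Lmo2 to Lmo4 was 5.87 in WT in place of 9.12 and 3.51 in Scl-/- cells in place of 5.46, less than 1 SD between replicates. The order of levels, compared after seeing the data, moved too, as given with the levels. Each genotype had 3 libraries, which limits the precision for Lyl1, with a mean near 1 CPM in Scl-/- cells, and for Tal2, Gata1, Gfi1, Gfi1b, Spi1, Myb, Nrip3, Asic4 and Hbb-bh1, with means below 1 CPM there.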
